A study of Mus musculus with 6 samples.

Results

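The NR4A orphan nuclear receptors are encoded in the mouse by 3 genes, *Nr4a1*, *Nr4a2* and *Nr4a3*, which were taken by gene symbol from the 54532 genes of the table. They were measured by RNA-seq in ovarian granulosa cells (GCs) of female ICR mice, an outbred stock. The mice of both groups, at an age of 3 weeks, were primed with PMSG, a gonadotropin that drives follicle growth, at a dose of 5 IU some 22 h ahead of treatment. The PBS group was given phosphate buffered saline and the CTX group a single dose of 120 mg/kg cyclophosphamide (CTX), an alkylating agent used in chemotherapy, and GCs were taken 6 h later. Each group had 3 samples, and every sample pooled the GCs of 3 mice, so the spread between samples is one of pools and not of single animals. The comparison addresses which transcripts differ in GCs soon after CTX. CTX replicate 2 stood apart from the other samples: its position on the first principal component, which held 46.8% of the variance, was 74.7, against -26.6 to 13.2 for the rest, and the member results are also given without it.

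NR4A proteins are transcription factors of the nuclear receptor superfamily for which no physiological ligand is established. Bulky side chains fill the pocket that holds the hormone in other receptors, and their activity is set largely by how much of the protein is made and how it is modified. They bind the NBRE, a short element that a single molecule can occupy, and *Nr4a1* and *Nr4a2* products can also pair with the retinoid X receptor (RXR). Their genes are immediate-early genes, which are transcribed within minutes of hormones, growth factors or stress, in large part through the cAMP-responsive factor CREB, and in GCs they respond to gonadotropins acting through cAMP.

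Stretches before the RefSeq start sites are shown because CREB binds the cAMP response element (CRE), a palindrome whose core pentamer is TGACG, read as CGTCA on the opposite strand. In the sequences (GRCm38.p6, sense strand, 5′ to 3′) capitals mark every core pentamer on either strand. The *Nr4a1* window, chr15:101266596-101266845 on the plus strand, is the 250 bases before the start site, and it lies in an intron of a longer annotated transcript. The *Nr4a2* window, chr2:57124004-57124253 on the minus strand, is the 250 bases before its start and lies outside the annotated gene. Of the *Nr4a3* window only the first 53 bases are shown, chr4:48045055-48045107 on the plus strand. The cut was made because RefSeq places another start of the gene inside the window and 152 of its 250 bases fall in a GENCODE exon. That other start lies within the bases shown, so the last of them come after it.
Nr4a1: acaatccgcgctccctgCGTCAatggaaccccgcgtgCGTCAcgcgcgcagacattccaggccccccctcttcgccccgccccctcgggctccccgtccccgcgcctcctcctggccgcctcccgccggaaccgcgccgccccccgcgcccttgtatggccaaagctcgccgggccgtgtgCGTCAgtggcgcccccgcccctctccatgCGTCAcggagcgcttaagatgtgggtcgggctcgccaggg
Nr4a2: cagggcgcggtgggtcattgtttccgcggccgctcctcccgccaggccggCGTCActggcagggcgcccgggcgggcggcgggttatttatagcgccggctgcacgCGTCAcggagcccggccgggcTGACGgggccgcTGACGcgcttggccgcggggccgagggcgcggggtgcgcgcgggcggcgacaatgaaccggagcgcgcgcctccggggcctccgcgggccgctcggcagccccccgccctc
Nr4a3: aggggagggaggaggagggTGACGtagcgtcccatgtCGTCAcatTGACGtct

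Each member carried 4 core pentamers in its 250 bases, of which 3 are visible for *Nr4a3*. Among 32851 RefSeq windows of the same length, 17.8% held at least 1 core pentamer and 45 (0.137%) held 4 or more. The windows of *Nr4a1*, *Nr4a2* and *Nr4a3* had 74.4%, 80.0% and 63.6% G or C, and the 32851 windows were not matched for this. In *Nr4a1* the core pentamers began 233, 213, 69 and 40 bases before the start, and all 4 were part of the CRE-like heptamer TGCGTCA. That heptamer was in 1.75% of all windows, and the *Nr4a1* window was the only 1 of 32851 with 4 copies. In *Nr4a2* the core pentamers began 200, 144, 123 and 111 bases before the start, and in *Nr4a3* 231, 213, 205 and 147 bases before it, with no TGCGTCA in either. For *Nr4a3*, only the pentamer at 231 bases began before the gene's other RefSeq start, and the rest lay after it. Its count is therefore not one of bases upstream of the whole gene. The full CRE, TGACGTCA, was in 1.55% of windows and the NBRE, AAAGGTCA, in 1.34%, both searched on each strand, and neither stood in the window of any member. The core pentamer overlaps the full CRE and the heptamer by construction. The core pentamer and the heptamer were chosen after these windows had been read, so the counts describe the letters and do not show binding.

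**Figure D1:**
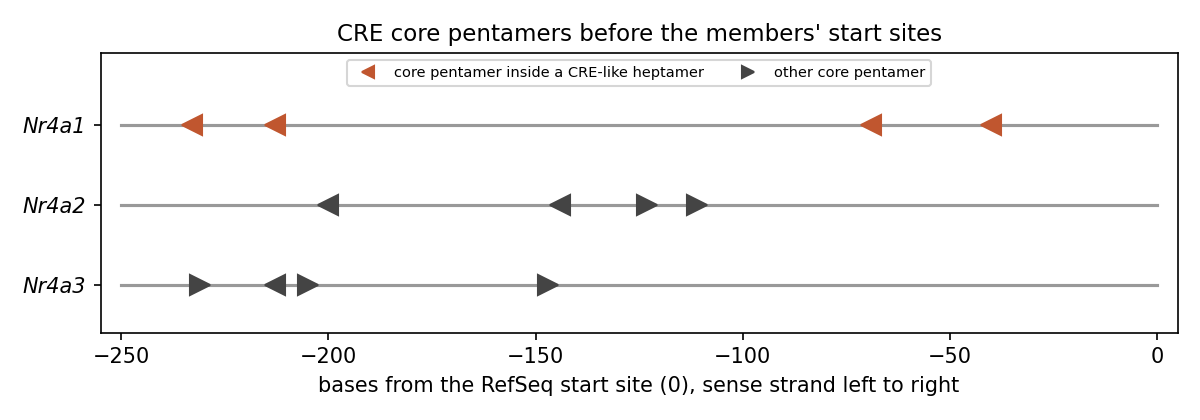
Core pentamers in the 250 bases before the RefSeq start site of each member; the x axis is the distance from the start in bases, arrows point in the direction in which TGACG reads, and orange marks core pentamers inside the heptamer TGCGTCA. Each gene holds 4, and those of *Nr4a1* all lie inside the heptamer. For *Nr4a3* another RefSeq start of the gene lies inside the window, and only the leftmost pentamer begins before it.

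Levels are in FPKM (fragment counts divided by gene length and sequencing depth), so levels of different genes can be set side by side. FPKM does not correct for differences in RNA composition between samples. The FPKM of all genes summed to 311806 to 328615 per PBS sample and 333854 to 335824 per CTX sample. With totals made equal, the log2 fold change of *Nr4a1* given below was 2.24 in place of 2.32. All 3 members were higher in every CTX sample than in any PBS sample. A gene was tested if its mean over the 6 samples was at least 0.5 FPKM, which 14463 genes passed. *Nr4a1* and *Nr4a2* were among them and *Nr4a3*, with a mean of 0.297 FPKM, was not. A gene was called when limma's adjusted p was below 0.05 and the change exceeded 2-fold. Both tested members were called, both upward. Of all tested genes 0.961% were called (139), 0.802% upward (116), and for 15.0% (2175) the CTX samples were all higher than the PBS samples. For 2042 of the 14463 they were all lower, and 2840 had an unadjusted p below 0.05 in limma.

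*Nr4a1* (ENSMUSG00000023034), also known as Nur77, spans chr15:101254269-101274795 on the plus strand (mm10). Its level in PBS replicates 1, 2 and 3 was 40.0, 43.3 and 34.4 FPKM. In CTX replicates 1, 2 and 3 it was 185, 166 and 241 FPKM. The lowest CTX sample was 3.84 times the highest PBS sample, and CTX replicate 3 stood highest. Mean levels were 39.2 ± 4.50 (SD, n = 3) and 198 ± 39.1 (SD, n = 3) FPKM. The log2 fold change on log2(FPKM + 0.1) was 2.32 (SE 0.16, 95% confidence interval 1.94 to 2.70, limma adjusted p = 0.0019), and it was the 22nd largest of the 116 upward calls. The rebuilt reads behind these levels numbered 1956 to 2786 per PBS sample and 10356 to 15175 per CTX sample, so counting error is small beside the spread between samples. The call held in all 15 alternative fits, with log2 fold changes of 2.16 to 2.57.

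*Nr4a2* (ENSMUSG00000026826), known as Nurr1 and required for midbrain dopamine neurons, spans chr2:57106830-57124003 on the minus strand. It was at 1.16, 1.45 and 1.22 FPKM in PBS replicates 1 to 3. The CTX replicates 1 to 3 had 4.15, 3.22 and 5.09 FPKM. The groups were apart, with the lowest CTX sample 2.22 times the highest PBS sample, and the CTX samples were spread more widely in FPKM. The means were 1.28 ± 0.154 and 4.15 ± 0.933 FPKM (SD, n = 3 each). The log2 fold change was 1.61 (SE 0.19, 95% confidence interval 1.15 to 2.07, limma adjusted p = 0.016), the 59th largest of the upward calls. This call was less firm than that of *Nr4a1*. Limma's adjusted p rose to 0.0955, 0.0626 or 0.0970 without PBS replicate 1, 2 or 3 and to 0.0581 without CTX replicate 3, while the log2 fold change stayed between 1.45 and 1.70. The rebuilt reads numbered 80 to 108 per PBS sample and 232 to 370 per CTX sample.

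*Nr4a3* (ENSMUSG00000028341), known as NOR-1, spans chr4:48045153-48086447 on the plus strand. It was close to the limit of detection in the PBS group, with 1, 12 and 3 rebuilt reads in replicates 1 to 3. These correspond to 0.00937, 0.109 and 0.0309 FPKM. The CTX replicates 1 to 3 had 93, 19 and 64 reads, or 0.857, 0.179 and 0.597 FPKM. CTX replicate 2 was only 1.64 times PBS replicate 2, so the groups were apart by a narrow margin. The means were 0.0499 ± 0.0526 and 0.544 ± 0.342 FPKM (SD, n = 3 each), and the difference on log2(FPKM + 0.1) was 1.99. An exact two-sided permutation test gave p = 0.10, the smallest value that 3 against 3 samples allow. With no filter on low values, limma gave an adjusted p of 0.233, so a change of *Nr4a3* was not established by either test. The size of the difference moved with the pseudocount, as 2 of the PBS samples had 3 reads or fewer.

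**Figure D2:**
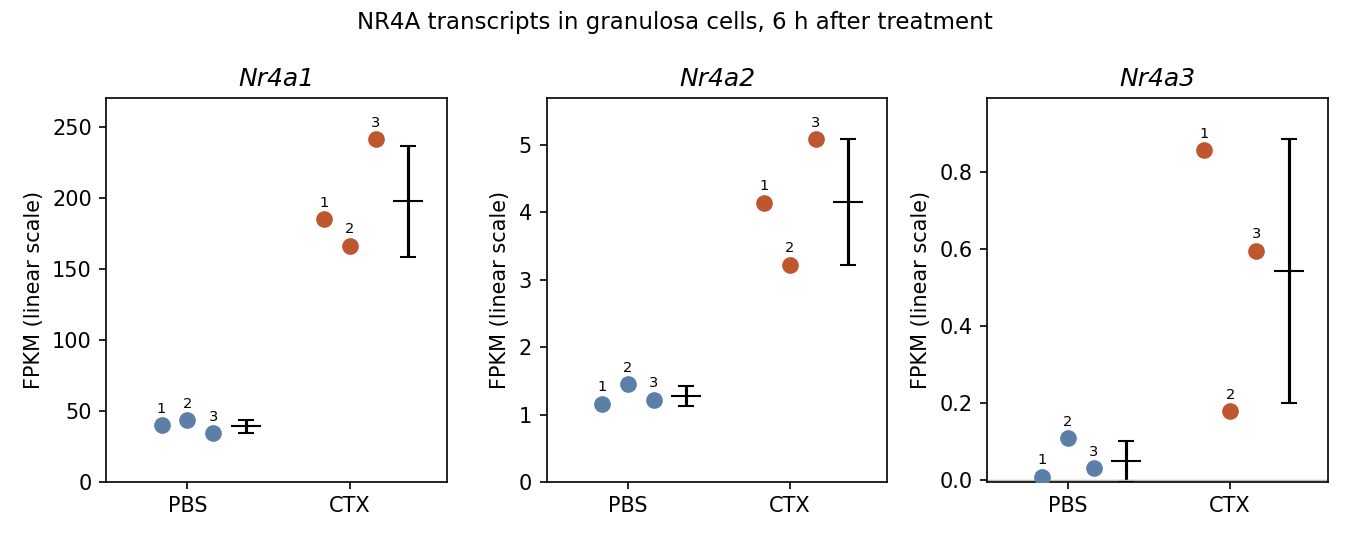
FPKM of *Nr4a1*, *Nr4a2* and *Nr4a3* in each sample on linear axes of different height, with replicate numbers over the points and the mean ± SD (n = 3) in black. The CTX samples lie above the PBS samples in all 3 panels, by a factor of 3.84, 2.22 and 1.64 between the nearest samples.

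The order of levels was the same in all 6 samples, *Nr4a1* above *Nr4a2* above *Nr4a3*, and the ranges of the members did not overlap. CTX replicate 2 had the lowest level of each member among the CTX samples, and PBS replicate 2 the highest among the PBS samples. CTX replicate 3 was highest for *Nr4a1* and *Nr4a2*, and CTX replicate 1 for *Nr4a3*. Over the 6 samples, log2(FPKM + 0.1) of *Nr4a1* and *Nr4a2* correlated at r = 0.99, of *Nr4a1* and *Nr4a3* at r = 0.89 and of *Nr4a2* and *Nr4a3* at r = 0.93. The points share the treatment, so these values describe the samples and no test was made.

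The summed level of the 3 genes was 41.2, 44.9 and 35.7 FPKM in PBS replicates 1 to 3 and 190, 170 and 247 FPKM in CTX replicates 1 to 3. This is a log2 difference of 2.31 (exact permutation test, p = 0.10, the smallest possible). *Nr4a1* made up 96.7% ± 0.374 of the sum in the PBS group and 97.7% ± 0.315 in the CTX group (SD, n = 3 each). The share of *Nr4a2* was 3.16% ± 0.305 in PBS and 2.05% ± 0.143 in CTX, and every CTX sample was below every PBS sample. The share of *Nr4a3* was 0.118% ± 0.114 in PBS and 0.266% ± 0.174 in CTX, with overlapping samples. Exact permutation tests of the shares gave p = 0.10, 0.10 and 0.30 (0.15, 0.15 and 0.30 after Benjamini-Hochberg adjustment over the 3).

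The FPKM ratio of *Nr4a1* to *Nr4a2* was 34.5, 29.8 and 28.3 in PBS replicates 1 to 3. In CTX replicates 1 to 3 it was 44.6, 51.6 and 47.4, above all PBS samples. The mean log2 ratio was higher by 0.64 in CTX (exact permutation test, p = 0.10, the smallest possible). In these samples both genes were higher after CTX and the more abundant one by the larger factor. As the test cannot fall below 0.10, a difference in factor was not established. The ratios of *Nr4a1* and of *Nr4a2* to *Nr4a3* had log2 differences of -1.51 and -2.15, with overlapping samples (p = 0.30 and 0.20, exact permutation tests), and they rest on the 1 to 12 reads of *Nr4a3* per PBS sample.

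Set against the rest of the superfamily, *Nr4a1* went from the 5th most abundant of 49 nuclear receptor genes in the PBS group to the 1st in the CTX group. In PBS it lay between *Pparg* at 48.6 ± 4.05 FPKM, a lipid-sensing receptor, and *Nr1h2* at 32.5 ± 1.55 FPKM, an oxysterol receptor, and its samples overlapped neither. In CTX the next receptor was *Nr5a2* at 189 ± 32.0 FPKM, a regulator of GC differentiation and ovulation, whose samples overlapped those of *Nr4a1*, so the leading rank is not resolved. *Nr4a2* moved from 28th to 20th. In CTX it lay between *Nr2f2* and *Nr3c1*, with overlapping samples. *Nr4a3* was 40th in PBS and 34th in CTX. Among the 1469 genes to which the table gives a transcription factor family, *Nr4a1* ranked 44th in PBS and 9th in CTX, *Nr4a2* 732nd and 448th, and *Nr4a3* 1071st and 855th.

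The NR4A genes together held 6.30%, 7.07% and 5.69% of the summed FPKM of the 49 receptors in PBS replicates 1 to 3. In CTX replicates 1 to 3 the share was 23.1%, 21.8% and 29.3%, from a mean of 6.35% ± 0.691 to 24.8% ± 4.02 (exact permutation test, p = 0.10, the smallest possible). The other 46 receptors summed to 598 ± 12.8 FPKM in PBS and 612 ± 19.0 FPKM in CTX (p = 0.50, exact permutation test). Of those 46, 31 were tested and none was called by limma, while 9 had an unadjusted p below 0.05. Among all 14463 tested genes 139 were called and 2840 had an unadjusted p below 0.05. The median log2 fold change of the 31 receptors was 0.11, against -0.01 for all tested genes. CTX samples were above all PBS samples for 11 of the 31, against 2175 of all 14463. The highest log2 fold change of the 31 was 1.41 (limma adjusted p = 0.060). It was that of *Nr1d1*, a clock repressor, at 9.95 ± 1.85 and 27.3 ± 8.23 FPKM.

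**Figure D3:**
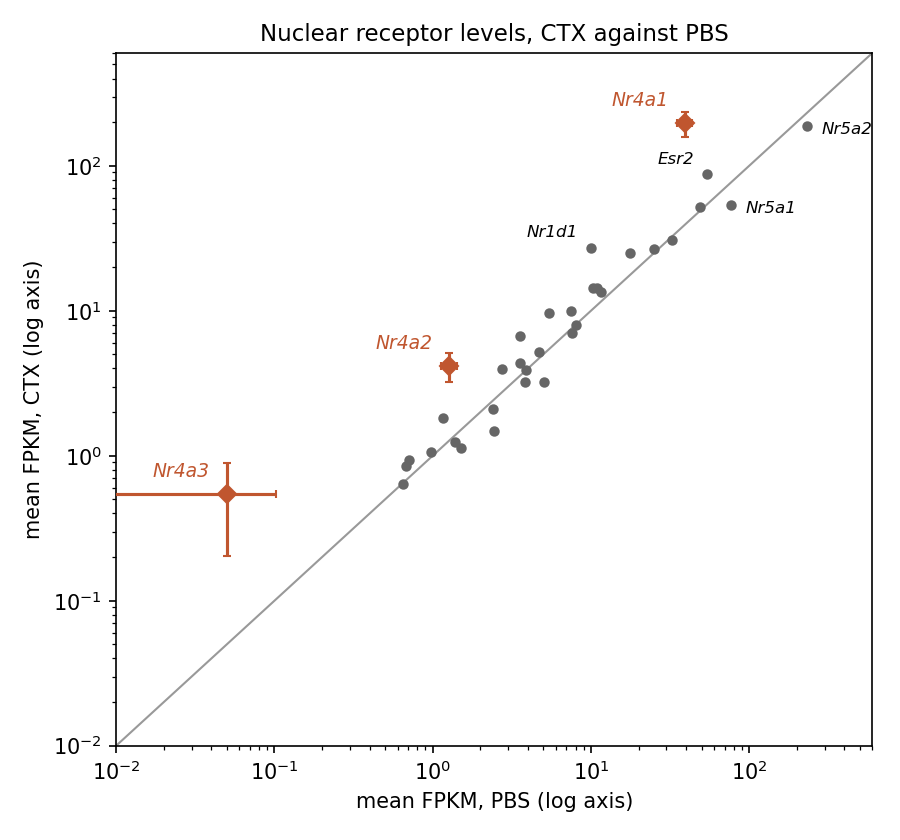
Mean FPKM in CTX (y) against PBS (x) on log axes for the 31 other tested nuclear receptors (grey) and the 3 NR4A genes (orange, bars ± SD, n = 3; the lower end of the PBS bar of *Nr4a3* runs off the axis), with the line of equal levels. *Nr4a1* and *Nr4a2* lie above the line and above the grey points of like PBS level.

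**Figure D4:**
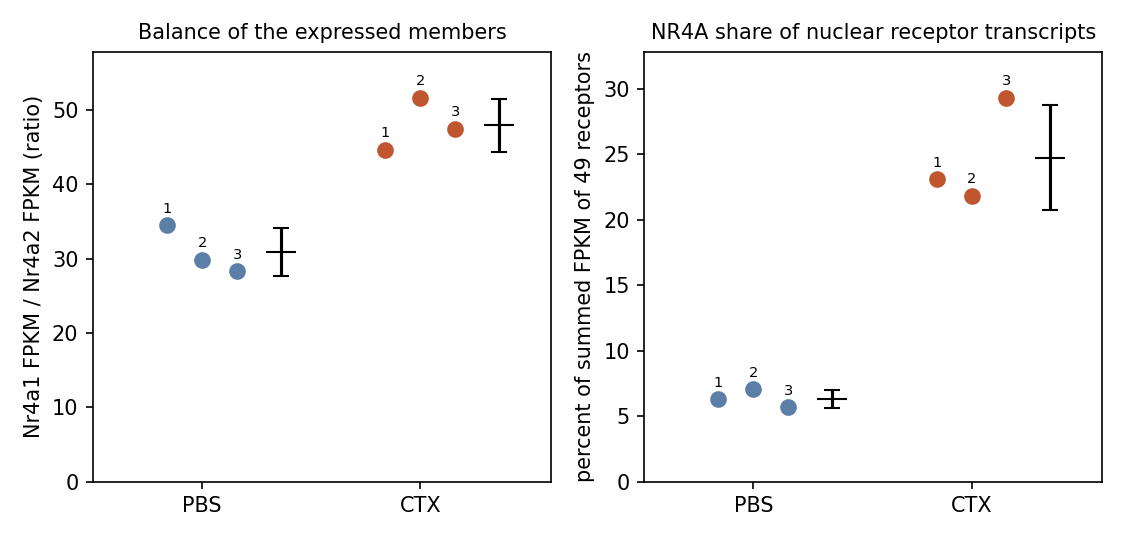
Left, the FPKM ratio of *Nr4a1* to *Nr4a2* in each sample; right, the percent of the summed FPKM of 49 nuclear receptors held by the 3 NR4A genes, with replicate numbers over the points and the mean ± SD (n = 3) in black. CTX samples lie above PBS samples in both panels, at 44.6 to 51.6 against 28.3 to 34.5 and at 21.8% to 29.3% against 5.69% to 7.07%.

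RXR, the shared dimer partner, was expressed at the level of RNA in both groups. *Rxra* was at 10.3 ± 0.104 FPKM in PBS and 14.3 ± 2.59 in CTX (log2 fold change 0.46, limma adjusted p = 0.150), and *Rxrb* at 25.1 ± 1.28 and 26.7 ± 0.702 FPKM. Neither was called, and *Rxrg* was below the filter. In PBS both were below the level of *Nr4a1* and above that of *Nr4a2*, and the same held in CTX.

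Factors upstream of the NR4A genes were not called, which for a list of this length is near the 0.961% called of all tested genes. In limma 2840 of all 14463 had an unadjusted p below 0.05. Of 25 listed genes in the table (CREB and its coactivators, protein kinase A, MEF2, SRF and MAP kinases), 22 were tested and none passed, with 4 at an unadjusted p below 0.05 and a median log2 fold change of 0.03. *Srf*, which drives many immediate-early genes, was at 22.8, 25.9 and 24.5 FPKM in PBS and 31.9, 45.9 and 47.8 FPKM in CTX (log2 fold change 0.76, limma adjusted p = 0.087). *Creb1*, which encodes CREB itself, was at 4.24 ± 0.410 and 3.61 ± 0.188 FPKM (log2 fold change -0.22, limma adjusted p = 0.290). These are transcript levels, and the activity of the factors was not measured.

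Of 14 listed cAMP and CREB response genes, 7 were tested and 7 were below the filter. Of the 7 tested, 2 were called upward and none downward, against 0.802% of all tested genes called upward. The log2 fold change was positive for 6 and negative for 1. In limma 5 of the 7 had an unadjusted p below 0.05, against 2840 of all 14463 tested genes. For 5 the CTX samples were all higher than the PBS samples, against 2175 of all 14463. The median log2 fold change was 0.76, and with no filter it was 0.15 over 14 genes. *Gem*, which encodes a small GTP-binding protein, had the largest difference in the list but was not called, at 14.3, 14.4 and 12.4 FPKM in PBS and 34.8, 123 and 70.0 FPKM in CTX (log2 fold change 2.29, limma adjusted p = 0.062). The genes called were *Irs2*, an insulin receptor substrate, at 3.13 to 3.63 FPKM in PBS and 9.70 to 20.3 FPKM in CTX (log2 fold change 1.96, limma adjusted p = 0.022), and *Sik1*, a kinase that restrains CREB coactivators, at 8.54 to 10.6 FPKM in PBS and 20.2 to 33.7 FPKM in CTX (log2 fold change 1.42, limma adjusted p = 0.025). Both calls were lost without any one of the PBS replicates or CTX replicate 3. *Per1*, a clock gene, had a log2 fold change of 0.76 (limma adjusted p = 0.057). *Crem*, a classic cAMP-induced gene, was at 2.13 ± 0.177 and 2.24 ± 0.473 FPKM. Against 0.802% of all tested genes called upward, 19 of 27 tested immediate-early genes were called upward and none downward. The log2 fold change was positive for 24 and negative for 3 of them, with a median of 1.70. *Nr4a1* lay above that median and *Nr4a2* just below it. The largest changes in that list were those of *Klf4* (3.21), *Atf3* (3.13), *Egr2* (3.02) and *Egr4* (2.69), all transcription factors. Of 26 tested p53 targets 15 were called upward, against the same 0.802%, and none downward. The log2 fold change was positive for 23 and negative for 3 of them, with a median of 1.39. *Btg2* belongs to this list and to the immediate-early list.

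The genes whose level most resembled *Nr4a1* over the 6 samples, by Pearson's r of log2(FPKM + 0.1), were *Btg2*, an antiproliferative gene, *Zfp36*, whose product destabilizes mRNAs, *Klf6*, *Socs3*, an inhibitor of cytokine signalling, and *Bbc3*, the apoptosis inducer PUMA, with r from 0.997 to 0.999. For *Nr4a2* they were *Nfkbiz*, *Plekha7*, *Atf3*, *Psrc1* and *Zfp365*, with r from 0.995 to 0.999. The 2 sets share no gene. As r exceeded 0.95 for 228 genes with *Nr4a1* and for 200 with *Nr4a2*, and the points share the treatment, this order describes 6 samples only.

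Genes whose products act with the NR4A proteins, among them kinases, coregulators and the apoptosis regulator *Bcl2*, were not called. None of 27 tested passed, which is near the 0.961% called of all tested genes, and the median log2 fold change was 0.03. In limma 5 of the 27 had an unadjusted p below 0.05, against 2840 of all 14463. The largest difference was that of *Mdm2*, an E3 ligase and p53 target, at 12.1 ± 0.742 and 22.2 ± 3.08 FPKM (log2 fold change 0.87, limma adjusted p = 0.022), which is under the 2-fold threshold. *Bcl2*, whose product Nur77 can bind at mitochondria, was at 0.521 ± 0.0597 and 0.644 ± 0.0593 FPKM.

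None of the known transcriptional targets of the NR4A proteins that were tested was called at 6 h. As 0.961% of all tested genes were called, no call in lists this short is near that share. It does not show that the targets were unchanged. An unadjusted p below 0.05 in limma was found for 2840 of all 14463 tested genes. Of 10 tested steroidogenic and endocrine targets none was called, 1 had an unadjusted p below 0.05, and the median log2 fold change was -0.78, which was -0.13 without CTX replicate 2 and -1.46 without CTX replicate 1. *Cyp17a1*, the androgen-forming lyase, was at 30.8, 32.9 and 34.4 FPKM in PBS and 29.6, 1.25 and 12.4 FPKM in CTX (limma adjusted p = 0.329). *Cyp19a1*, aromatase, was at 60.0, 59.2 and 62.4 FPKM in PBS and 47.6, 6.61 and 32.5 FPKM in CTX (limma adjusted p = 0.291). In both genes CTX replicate 2 was by far the lowest. *Cyp11a1* and *Akr1c18* had log2 fold changes of -1.68 and -1.63 with limma adjusted p of 0.526 and 0.245. Of 10 tested targets from neurons, muscle and lymphocytes none was called either, 2 had an unadjusted p below 0.05, and the median was -0.10. The largest difference was that of *Spp1*, osteopontin, at 558 ± 74.2 and 139 ± 115 FPKM (log2 fold change -2.75, limma adjusted p = 0.219). None of the lists without a call, from the receptors to these targets, had one with voom on rebuilt reads. Of 15 tested ovulatory genes, a program that follows the gonadotropin surge, 1 was called, against 0.961% of all tested genes. It was *Sult1e1*, an estrogen sulfotransferase, which fell, a call lost with voom and without any one of the PBS replicates. The log2 fold change was negative for 12 and positive for 3 of the 15, with a median of -1.16, which was -0.37 without CTX replicate 2. CTX samples were all lower than PBS samples for 6 and all higher for 1. In limma 7 of the 15 had an unadjusted p below 0.05.

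**Figure D5:**
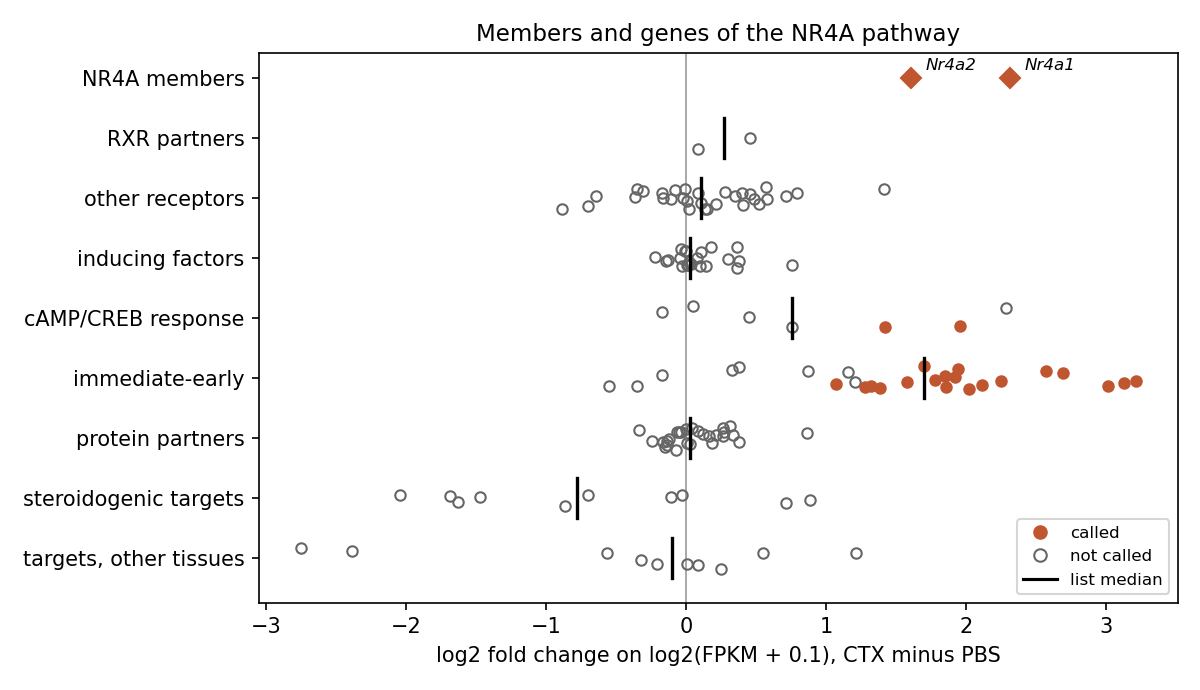
Log2 fold change (CTX minus PBS, on log2(FPKM + 0.1)) of the 2 tested members (diamonds) and of each tested gene in 8 lists; filled orange points were called, open points were not, and black bars are list medians. Called genes stand in the immediate-early list (19 of 27) and the cAMP and CREB list (2 of 7), against 0.961% of all tested genes.

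Genes with the binding element of the receptors near their start were also not called. Of 109 tested genes with an NBRE in the 250 bases before the start none was called, and their median log2 fold change was -0.03. In limma 20 of the 109 had an unadjusted p below 0.05, against 2840 of all 14463 tested genes. Of all 9874 tested genes with a RefSeq window, 99 (1.00%) were called and the median was -0.01. Of 296 tested genes with a full CRE 7 were called, all upward (2.36%), with a median of -0.01. They were *Btg2*, *Hic2*, *Irf2bpl*, *Maff*, *Plk2*, *Ppp1r15a* and *Snhg15*. Of 168 tested genes with at least 3 core pentamers, 3 were called, namely *Nr4a1*, *Nr4a2* and *Snhg15*, and that set was made after the members' windows had been read.

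The genes around the members did not pass the test. Of the 18 nearest tested genes, 3 on each side of each member, none was called by limma or by voom on rebuilt reads. For so few genes that is near the 0.961% called of all tested genes in limma. In limma 2 of the 18 had an unadjusted p below 0.05, against 2840 of all 14463. Distances to the member ran from 9.48 kb for *Atg101* to 3021 kb for *Rprm*, near *Nr4a2* only in this sense. Some of the 18 are thus far from their member. The nearest to *Nr4a1* was *Atg101*, an autophagy gene 9.48 kb away, at 22.8 ± 2.35 and 33.2 ± 1.14 FPKM. Its log2 fold change was 0.54 (limma adjusted p = 0.041), under the 2-fold threshold. *Grasp*, 21.5 kb away on the other side, was at 18.3 ± 0.528 and 25.6 ± 6.50 FPKM (log2 fold change 0.45, limma adjusted p = 0.242). *Gpd2*, 114 kb from *Nr4a2*, and *Stx17*, 38.5 kb from *Nr4a3*, both had log2 fold changes of -0.02. No gene of the table overlaps a member. Of the 50-base words in the members' transcripts none was shared with another gene for *Nr4a1* and *Nr4a2*, and 0.150% were for *Nr4a3*, and the longest run common to 2 members was 27 bases.

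Reads on genes were 16005869 to 17790353 per PBS sample and 17727770 to 18455011 per CTX sample. The 12 granulosa markers summed to 12347 to 13600 FPKM in PBS and 11086 to 11800 in CTX, of which *Inha* made up the most. None was called by limma (3 with an unadjusted p below 0.05), but CTX samples were all lower than PBS samples for 7 of the 12 and all higher for 1, *Amh*. Among all 14463 tested genes they were all lower for 2042 and all higher for 2175, and 2840 had an unadjusted p below 0.05 in limma. *Foxl2* was at 188 ± 4.88 FPKM in PBS and 110 ± 34.2 in CTX, *Fshr* at 91.8 ± 3.04 and 64.4 ± 19.4, and *Amh* at 49.4 ± 1.43 and 106 ± 64.7 (SD, n = 3 each). The 7 theca markers summed to 714 to 732 FPKM in PBS and to 932, 26.4 and 581 FPKM in CTX replicates 1 to 3, with *Cyp17a1* and *Cyp11a1* among them. *Cyp11a1* made up most of that sum. In CTX replicate 2 *Cyp11a1*, *Lhcgr*, *Cyp17a1* and *Star* were lowest of all samples. *Ptch1* was highest there, at 6.55 FPKM, and *Insl3*, at 0.814 FPKM, was above all PBS samples. The 14 macrophage and leukocyte markers summed to 24.7 to 27.9 FPKM in PBS and to 42.5, 75.9 and 30.4 FPKM in CTX replicates 1 to 3. Of these, 1 of 8 tested, *Cd14*, was called, against 0.961% of all tested genes. *Lyz2* made up the most of the sum, at 45.8 FPKM in CTX replicate 2. *Lyz2* and *Cd68* were highest of all samples there, whereas *Itgam* and *S100a8* were lowest. The 8 stroma and smooth muscle markers summed to 25.7 to 26.9 FPKM in PBS and 29.1 to 51.6 in CTX, with 1 of 6 tested, *Acta2*, called. Endothelial markers summed to 7.76 to 8.10 FPKM in PBS and 3.22 to 6.98 in CTX, below all PBS samples. Oocyte markers summed to 37.4 to 81.5 FPKM in PBS and 53.6 to 93.2 in CTX, and erythroid markers to 319 to 454 and 138 to 497. No marker was at 0 in all samples. The part of other cell types in the NR4A levels was not tested, and in bulk RNA fewer cells of a type and less RNA per cell cannot be told apart. CTX replicate 2 had the lowest theca marker sum, which is mostly *Cyp11a1*, while *Ptch1* and *Insl3* were not lowest there. It had the highest leukocyte marker sum and the lowest level of each member in its group. Without it the log2 fold change was 2.43 for *Nr4a1* (limma adjusted p = 0.0011) and 1.78 for *Nr4a2* (limma adjusted p = 0.0042), and the difference of *Nr4a3* was 2.50.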

How the data were processed

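GCs of 3 PBS and 3 CTX samples were assigned to groups by their labels. Per the labels' processing notes, the submitters' tools included CASAVA 1.8, fastp, HISAT2 2.0.5, featureCounts 1.5.0-p3 and DESeq2 1.20.0, with build mm10. The authors deposited FPKM values for 54532 genes. The table also holds the authors' group means, fold change and p-values of their own comparison, which were not used. Times gene length, 100% of the FPKM values were whole multiples of 1 read within 0.01, so reads were rebuilt.

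log2(FPKM + 0.1) was compared with limma 3.58.1 (lmFit, eBayes with trend, R 4.3.3) over the genes with a mean of at least 0.5 FPKM, with Benjamini-Hochberg adjustment over all of them. The fit was also run on simulated data with the same spread in both groups. The CTX samples here spread more widely than the PBS samples, so that run does not test the fit at their spread. Single values were compared with two-sided exact permutation tests. The members and lists were chosen with earlier results of these data known. Named genes are the members, up to 4 genes per list with the largest change, listed genes needed beside a count, the 3 nearest tested genes on each side and the 5 most similar in level. *Crem*, *Creb1*, *Bcl2*, the markers given singly and the receptors next to a member in rank were named after their values were seen. Coordinates are those of the table and matched GENCODE M21 for all 3 members. Promoter windows were RefSeq's (GRCm38.p6). The figures were drawn with Python 3.11.15 and matplotlib 3.10.9.

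Alternatives were pseudocounts of 1 and 0.01, no filter, a mean of at least 5 FPKM, equal totals, quantile normalization, arrayWeights, a replicate block, voom on rebuilt reads, and each sample left out.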

Additional observations from a re-analysis of the deposited data

How the results depend on the processing

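Of 277 values recomputed for 21 results, 230 kept their direction and their call, or moved by at most 1.5 times (counts) or less than 1 SD. A further 42 moved by more, and 5 lost their call. No fold change or share reversed, whereas most of the 277 are counts, which have no direction to reverse. Counts of 0 that stayed at 0 are among the 230, and shares cannot change with equal totals. *Nr4a1* was called under every alternative run. Leaving out each sample in turn gave log2 fold changes of 2.16 to 2.43 for *Nr4a1* and 1.45 to 1.78 for *Nr4a2*, and 1 or 2 members called. The replicate numbers do not pair the samples (the same-number correlations of deviations were 0.056, 0.024 and 0.0058). With the replicate block *Nr4a2* kept its log2 fold change of 1.61 but not its call (limma adjusted p = 0.115), and the counts were 1 member, 50 genes in all, 11 immediate-early genes, 3 CRE promoter genes, and 0 for the cAMP and CREB list and the ovulatory list. At a mean of at least 5 FPKM, *Nr4a2* and *Nr4a3* could not be tested, so 1 member was called, with 1 other receptor and 0 ovulatory genes. With arrayWeights 657 genes were called, among them 1 other receptor, 2 steroidogenic targets, 2 targets of other tissues, 6 ovulatory genes and 3 NBRE promoter genes. With voom 0 ovulatory genes were called. For *Nr4a3* the difference was 0.53 with a pseudocount of 1 and 3.35 with 0.01.

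Leaving out 1 sample gave 58 to 208 genes called (68, 65 and 58 without PBS replicates 1, 2 and 3, and 83 without CTX replicate 3), 0 or 1 other receptor, 0 to 3 cAMP and CREB genes, 0 or 1 target of other tissues, 0 to 2 ovulatory genes, 0 to 2 NBRE promoter genes and 3 to 9 CRE promoter genes. The cause of these moves was not tested. With 3 samples a group no exact permutation test can fall below 0.10, and at 1 to 12 reads per PBS sample the level of *Nr4a3* is limited by depth.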
